A study of Mus musculus with 6 samples.

Results

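The 9 genes described here, Mbp, Pmp22, Mal, Pllp, Prx, Ncmap, Mag, Ugt8a and Egr2, are genes of the myelin sheath and of the Schwann cell that makes it. They were taken as a named list from the 27998 genes of 1 table of unique molecular identifiers (UMIs, each standing for 1 captured RNA molecule) and were read per mouse, per group and per marker-gated cell type, with neurons set beside glia, as a gauge of Schwann cell RNA in neuron droplets. All 9 had UMIs. The cells came from the dorsal root ganglion (DRG), the cluster of sensory neurons beside the spinal cord, of 6 mice in 3 groups, with 1 female and 1 male in each. The deficient group held mice 654 (female) and 657 (male), Ttpa-/- and fed a vitamin E deficient diet, and the supplemented group held mice 670 (male) and 671 (female), Ttpa-/- and given added vitamin E, all at the age of 6 months. The wild-type group held mice 698 (female) and 699 (male), Ttpa+/+, labelled basal for vitamin E, at 5 months, so that genotype, diet and age cannot be told apart between it and the other groups. Ttpa encodes the transfer protein that loads vitamin E for export from the liver. Its UMIs numbered 4 and 5 in the deficient libraries, 1 and 4 in the supplemented ones and 0 in both wild-type ones, which is too few to check a genotype.

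Schwann cells wrap the axons of large sensory neurons in myelin, a stack of membrane rich in lipid and in a few proteins, while satellite glia cover the neuron cell bodies inside the ganglion and form no myelin. Mbp encodes myelin basic protein, which joins the inner faces of the membrane, and Pmp22 a membrane protein of compact peripheral myelin that is also made outside the nervous system. Mal and Pllp (plasmolipin) encode related membrane proteins of lipid-rich domains. Prx encodes periaxin, a scaffold of the Schwann cell, Ncmap a protein of non-compact myelin and Mag the myelin-associated glycoprotein facing the axon. Ugt8a makes galactosylceramide, a lipid of myelin, and Egr2 is the transcription factor that drives the myelin program in Schwann cells.

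The sequences shown are the 250 bases upstream of annotated starts of Prx and Ncmap, which differed several-fold between libraries in neurons, and of Pmp22, which varied less. They are RefSeq sequences on GRCm38.p6, written 5′ to 3′ on the strand of the gene, at chr7:27499074-27499323 (Prx, plus strand), chr4:135398228-135398477 and chr4:135385673-135385922 (Ncmap, minus strand), and chr11:63128732-63128981 and chr11:63131207-63131456 (Pmp22, plus strand, the first 2 of 4 windows). Capitals mark a match to GCGTGGG, a site of the EGR family, or to its reverse complement CCCACGC.
Prx: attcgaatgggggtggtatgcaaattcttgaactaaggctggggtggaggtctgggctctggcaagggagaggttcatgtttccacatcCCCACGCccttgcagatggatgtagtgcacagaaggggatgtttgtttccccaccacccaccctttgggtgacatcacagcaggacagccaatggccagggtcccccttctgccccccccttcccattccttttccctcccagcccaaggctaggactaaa
Ncmap upstream start: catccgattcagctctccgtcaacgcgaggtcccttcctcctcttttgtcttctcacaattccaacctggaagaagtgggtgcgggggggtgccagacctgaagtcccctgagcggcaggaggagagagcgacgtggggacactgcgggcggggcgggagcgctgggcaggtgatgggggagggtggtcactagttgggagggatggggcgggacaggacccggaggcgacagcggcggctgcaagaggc
Ncmap downstream start: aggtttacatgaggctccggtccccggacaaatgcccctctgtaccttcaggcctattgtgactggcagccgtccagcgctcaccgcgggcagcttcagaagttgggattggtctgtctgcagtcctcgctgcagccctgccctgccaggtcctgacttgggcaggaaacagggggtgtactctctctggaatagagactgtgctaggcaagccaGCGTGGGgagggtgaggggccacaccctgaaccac
Pmp22 first start: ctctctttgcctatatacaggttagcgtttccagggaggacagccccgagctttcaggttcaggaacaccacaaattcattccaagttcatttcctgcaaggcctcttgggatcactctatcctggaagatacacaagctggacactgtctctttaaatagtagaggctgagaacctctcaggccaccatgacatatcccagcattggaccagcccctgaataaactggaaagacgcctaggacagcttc
Pmp22 second start: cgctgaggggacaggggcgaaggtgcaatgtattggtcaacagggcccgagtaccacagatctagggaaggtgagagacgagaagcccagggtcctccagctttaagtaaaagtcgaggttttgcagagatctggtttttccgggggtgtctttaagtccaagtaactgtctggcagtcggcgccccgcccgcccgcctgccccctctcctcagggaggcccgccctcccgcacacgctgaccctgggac
An EGR match stood in 2 of the 18 windows of the 8 members read this way, the Prx window and the window of the downstream Ncmap start, where 4.3% of all 32851 windows of this length held one. The 1 window of Ugt8a and the 3 of Mag, genes that also differed several-fold between libraries in neurons, held none. The motif ACAAAG of the SOX family, searched on both strands as CTTTGT too, stood in 2 of the 18 windows, overlapping windows of Mag that share 1 site, against 16.5% of all windows. A match is a description of letters, and a count from the 3′ end of the RNA does not tell which start was used.

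All 9 genes were placed in the mouse annotation. In GENCODE vM21 (GRCm38, the assembly also named mm10, which the submitters' processing notes give) all 9 are protein-coding genes with no other gene overlapping on the same strand. Mbp lies on chromosome 18 from 82475146 to 82585637, Pmp22 on chromosome 11 from 63128982 to 63159547, Mal on chromosome 2 from 127633226 to 127656695 and Pllp on chromosome 8 from 94674894 to 94696278. Prx lies on chromosome 7 from 27499324 to 27520214, Mag on the same chromosome from 30899176 to 30914873, Ncmap on chromosome 4 from 135369576 to 135398227, Ugt8a on chromosome 3 from 125865271 to 125938619 and Egr2 on chromosome 10 from 67535475 to 67542188. Gene models of the other strand overlap Mbp (Rpl21-ps8), Prx (Gm15541), Ncmap (Gm12991) and Pllp (Gm45767). The sources do not state whether strand was used in counting, so reads of these pairs may not be told apart.

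The table held 21685 droplets with 12538785 to 19383933 UMIs per library, of which 21658 were kept. Median UMIs per droplet were 2856 and 4959 in deficient, 2500 and 3478 in supplemented and 4037 and 4350 in wild-type mice, in the order 654, 657, 670, 671, 698, 699, which is kept below. Mouse 654 and mouse 670, 1 of each Ttpa-/- group, thus had the fewest UMIs per droplet. The samples are labelled as DRG neurons. Gates built from marker genes, none of them a member, called 16542 droplets (76.4%) neurons, 729 glia, 4298 intermediate, 14 Schwann cells and 75 other cells. Glia-gated droplets had a median of 1.11% of UMIs from 20 satellite glia markers and still 1.70% from 20 pan-neuronal genes, against 0.0232% and 2.48% in neuron-gated droplets, and only 1 of the 729 held fewer than 5 pan-neuronal UMIs, so glia-gated droplets held neuronal RNA as well. Fabp7 or Apoe, satellite glia markers, had a UMI in 2541 of the neuron-gated droplets, although the gate itself caps their share. A total of 261 barcodes occurred in more than 1 library.

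The few Schwann-gated droplets give the members in cells of their own kind. They were chosen by 12 myelinating Schwann genes, none of them a member. Of the 14, mouse 654 (deficient) gave 4, mouse 670 (supplemented) 9 and mouse 698 (wild type) 1, and they held 945 to 2174 UMIs each. Together they held 74 UMIs of Pmp22, 49 of Mbp, 13 each of Mal and Ncmap, 7 of Prx, 5 of Pllp, 4 of Ugt8a, 3 of Mag and 1 of Egr2. In 10 of the 14 at least 3 members were present, against 10 of 729 glia-gated droplets (1.37%) and 313 of 16542 neuron-gated ones (1.89%). With Pmp22 left aside, 47 neuron-gated droplets (0.284%) held at least 3 members, 14 and 3 of them in deficient, 20 and 7 in supplemented and 1 and 2 in wild-type mice. Mice 654 and 670 gave most of these 47. Over all 9 members the droplets with at least 3 were spread more evenly, 73 and 43 in deficient, 66 and 44 in supplemented and 52 and 35 in wild-type mice. Of the 14 Schwann-gated droplets, only 4 held fewer than 5 pan-neuronal UMIs, 3 from mouse 670 and 1 from mouse 654, with 945 to 1116 UMIs each. The smallest droplets in the table held 1985 UMIs in mouse 657, 1482 in mouse 671, 1541 in mouse 698 and 1893 in mouse 699, so droplets of that size were in the table only for mice 654 and 670, where the smallest held 1006 and 929 UMIs.

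Most UMIs of each member except Ugt8a came from droplets gated as neurons. That gate held 76.4% of the kept droplets, with a median of 4082.5 UMIs against 2444 in intermediate and 1893 in glia-gated ones. It thus held most UMIs of the whole table too, a larger share than its 76.4% of droplets. A member share near 76.4% is therefore no even spread, and the shares below are not levels. The neuron gate held 86.0% of the 55463 UMIs of Pmp22, 83.5% of the 321 of Pllp, 76.7% of the 2032 of Mal, 76.5% of the 4383 of Mbp and 75.1% of the 261 of Ncmap. Its share was 62.1% of the 95 UMIs of Prx, 59.3% of the 135 of Egr2, 55.6% of the 36 of Mag and 47.1% of the 102 of Ugt8a. Pmp22 was found in 11682 of the 16542 neuron-gated droplets, whereas Mag was found in 20.

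Across mice, Prx, Ncmap, Ugt8a and Mag were highest in neuron-gated droplets of the same 2 libraries. Prx stood at 1.20 and 0.0615 CPM (UMIs of the gene per 1000000 UMIs) in deficient, 2.54 and 0.843 CPM in supplemented and 0.263 and 0.228 CPM in wild-type mice. Ncmap stood at 5.14 and 1.11 CPM in deficient, 5.89 and 1.69 CPM in supplemented and 1.18 and 1.14 CPM in wild-type mice. Both genes were highest in mouse 654 and mouse 670, 1 deficient and 1 supplemented, and the 2 mice of each of these groups lay further apart than the wild-type pair. Ugt8a, on 48 UMIs, stood at 1.63 and 0.492 CPM in deficient, 1.22 and 0.153 CPM in supplemented and 0.263 and 0.171 CPM in wild-type mice. Mag, on 20 UMIs, reached 0.508 CPM in mouse 670 and 0.343 CPM in mouse 654, with 0.114 to 0.230 CPM in the other mice.

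For Mbp, Pmp22, Mal, Pllp and Egr2 the same 2 libraries stood out less. Mbp had 45.4 and 37.8 CPM in neuron-gated droplets of deficient, 47.4 and 37.3 CPM of supplemented and 38.7 and 38.0 CPM of wild-type mice. Pmp22 had 618 and 607 CPM in deficient, 625 and 509 CPM in supplemented and 595 and 500.3 CPM in wild-type mice, with the groups overlapping. Mal had 30.0 and 17.7 CPM in deficient, 24.6 and 16.8 CPM in supplemented and 16.1 and 12.4 CPM in wild-type mice, both Ttpa-/- groups lying above the wild-type one. Pllp had 3.51 and 2.52 CPM in deficient, 4.37 and 2.53 CPM in supplemented and 3.68 and 3.08 CPM in wild-type mice, and Egr2, on 80 UMIs, had 1.11 and 0.615 CPM, 1.73 and 1.07 CPM, and 0.592 and 0.970 CPM in deficient, supplemented and wild-type mice. Mice 654 and 670 had the 2 highest neuron levels for 8 of the 9 members, all but Pllp, as they had for 15.0% of the 14310 genes with at least 20 neuron UMIs. Among genes with as many UMIs, the same held for 10 of 21 other myelin genes (47.6%) and 11 of 18 satellite glia markers (61.1%). Some non-member markers moved with them: the 12 myelinating Schwann genes, of which 1 was at 0 in neuron-gated droplets, summed to 130 and 83.3 CPM in deficient, 147 and 89.5 CPM in supplemented and 80.1 and 78.8 CPM in wild-type mice, and the 20 satellite glia markers, none at 0 and their share capped by the neuron gate, to 375 and 305 CPM, 426 and 343 CPM, and 323 and 318 CPM. Dusp15 and Cnp gave the most neuron UMIs of these Schwann genes, 2992 and 2481. The neuron level was 1.17 of the glia level for Dusp15 and 0.608 for Cnp, so the Schwann sum is not a specific reading of Schwann cell RNA. The 6 nonmyelinating Schwann markers, none at 0, were lowest in mice 654 and 670, with sums of 499 and 616 CPM in deficient, 552 and 682 CPM in supplemented and 677 and 724 CPM in wild-type mice. In glia-gated droplets their sums, 577 to 949 CPM, overlapped these, so this list sets glia and neurons little apart. The 8 macrophage markers, highest in mice 654 and 670 too, summed to 9.08 and 2.34 CPM, 13.8 and 4.91 CPM, and 6.05 and 4.45 CPM. So did the 5 erythroid markers, with 15.4 and 8.31 CPM, 13.0 and 7.82 CPM, and 8.69 and 12.4 CPM. Fibroblast, endothelial and mural sums were not highest in both of these mice. The part of Schwann, satellite glia and other non-neuronal RNA in the levels of the members was not tested.

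**Figure D1:**
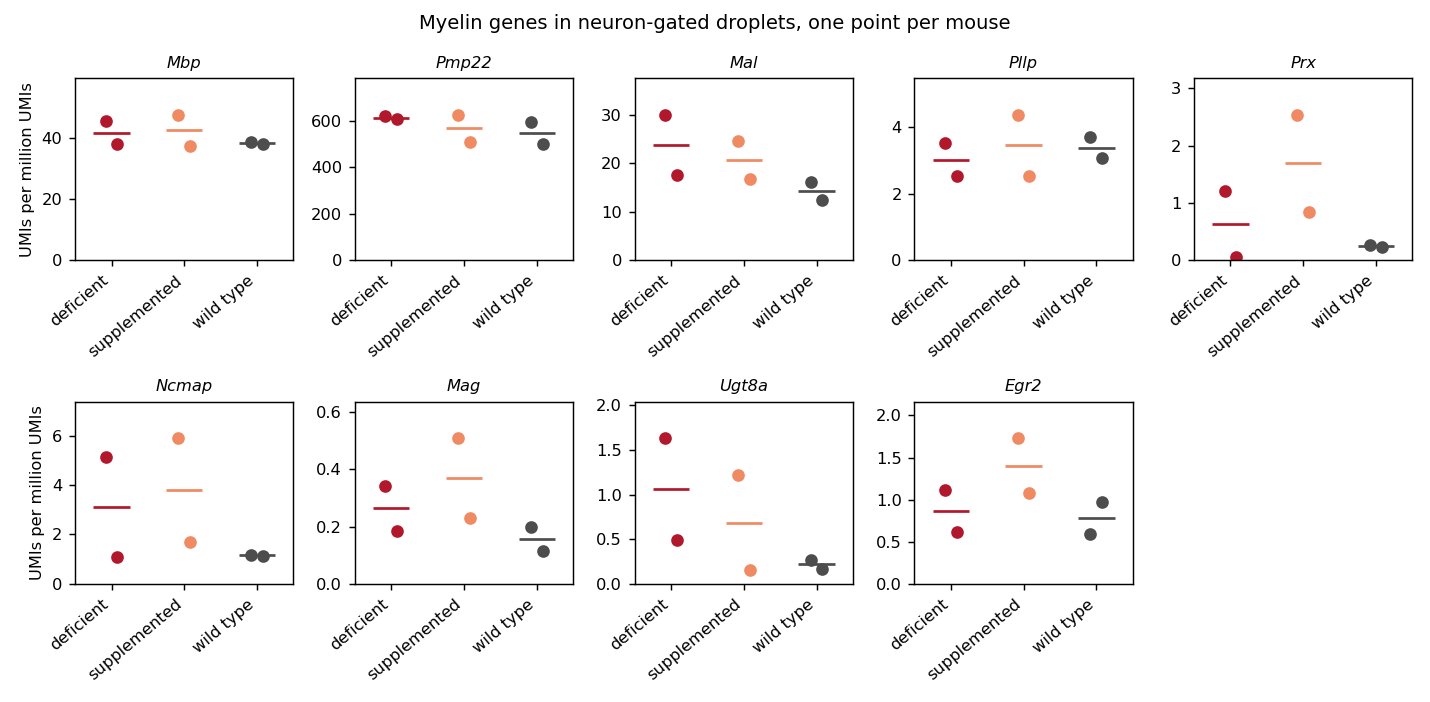
CPM of the 9 myelin genes in neuron-gated droplets, 1 point per mouse, with deficient, supplemented and wild-type mice in red, orange and grey and the mean of each pair as a line; each panel has its own scale starting at 0. Prx and Ncmap are highest in the upper points of the deficient and supplemented pairs (mice 654 and 670), and Pmp22 lies between 500.3 and 625 in all mice.

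No member passed the test between groups in neurons. Deficient neurons were set against wild-type ones, supplemented against wild-type ones, and deficient against supplemented ones, with edgeR's quasi-likelihood test on the UMI sums of the 6 mice and p adjusted by Benjamini-Hochberg over all 13094 genes tested. In each comparison 0 of 8 members tested were called (Mag was below the count filter) where 0% of all genes were, at an adjusted p of 0.05. At an unadjusted p of 0.05 the numbers of genes were 458, 414 and 237. Among them were Mal and Ugt8a in the first comparison, Prx and Ncmap in the second and no member in the third. DESeq2 called 1, 5 and 0 genes and limma-voom none, and neither called a member.

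Against wild-type neurons the largest member differences did not pass after adjustment, and those of Ugt8a, Ncmap and Prx had SEs of 0.68 to 1.08. In deficient against wild-type neurons the log2 fold change was 2.17 ± 0.90 (SE) for Ugt8a, 1.34 ± 0.69 for Ncmap, 1.16 ± 1.08 for Prx and 0.73 ± 0.25 for Mal (edgeR adjusted p = 0.991 for each). In supplemented against wild-type neurons it was 2.67 ± 0.91 for Prx, 1.62 ± 0.68 for Ncmap, 1.49 ± 1.01 for Ugt8a, 0.77 ± 0.47 for Egr2 and 0.51 ± 0.25 for Mal (edgeR adjusted p = 0.999 for each). Both comparisons use the same wild-type mice. In deficient against supplemented neurons the range was from -1.51 ± 0.82 for Prx to 0.68 ± 0.79 for Ugt8a (edgeR adjusted p = 0.9997 for both). For Mbp, with 3352 neuron UMIs, the 3 comparisons gave 0.11, 0.12 and -0.01, and for Pmp22, with 47673, they gave 0.16, 0.03 and 0.13, each with an SE of 0.15. The median over the members was 0.44, 0.64 and -0.09, beside medians of 0.00, -0.01 and 0.00 over all genes tested. Without mouse 654 the deficient against wild-type value of Prx was -1.84 and that of Ncmap -0.06, so these positive values rested on that library. The -1.84 in turn rested on 1 Prx UMI in mouse 657, against 4 in each wild-type mouse. Without mouse 670 the supplemented against wild-type value was 1.74 for Prx and 0.52 for Ncmap. Without the count filter, which adds genes of few UMIs, edgeR called Mal and Ncmap in deficient and Prx and Ncmap in supplemented against wild-type neurons.

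The Mal level also moved with the make-up of the neurons. NP1-gated neurons, where Mal was high, made up 20.6 and 14.2% of the neurons in deficient, 20.01 and 14.6% in supplemented and 11.1 and 8.50% in wild-type mice. Averaging the 6 neuron classes with equal weight gave Mal levels of 22.7 and 17.9 CPM in deficient, 20.7 and 17.8 CPM in supplemented and 16.5 and 17.9 CPM in wild-type mice, so that mice 657, 671 and 699 came to the same level. The part of the make-up in the Mal level was not tested. At this equal mix mice 654 and 670 had the 2 highest levels for all 9 members, Mal and Pllp among them. The share of all genes in this order at the equal mix was not computed, so the count has no baseline. Some margins were small: Pmp22 had 576 CPM in mouse 654 against 568 CPM in mouse 657. Mag had 0.313 CPM in mouse 670 against 0.2245 CPM in mouse 657. Ncmap had 5.61 and 1.58 CPM in deficient, 5.90 and 1.59 CPM in supplemented and 1.14 and 1.39 CPM in wild-type mice.

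In glia, at much lower depth, no member passed the test between groups either. The glia gates held 94 and 53 droplets in deficient, 151 and 250 in supplemented and 113 and 68 in wild-type mice, and Mbp and Pmp22 alone passed the count filter among the members. Mbp had 121 and 94.9 CPM in glia of deficient, 189 and 66.5 CPM of supplemented and 78.4 and 77.7 CPM of wild-type mice, the supplemented pair lying on both sides of the wild-type pair. Its log2 fold change was 0.46 ± 0.45 in deficient and 0.47 ± 0.39 in supplemented against wild-type glia, and -0.01 ± 0.40 in deficient against supplemented glia (edgeR adjusted p of 0.994, 0.9997 and 0.999). Pmp22 had 398 and 454 CPM in deficient, 378 and 414 CPM in supplemented and 429 and 439 CPM in wild-type mice. In all 3 comparisons edgeR called 0 of the 2 members and 0% of the 3868 genes tested, with 156, 138 and 111 genes at an unadjusted p of 0.05, and neither DESeq2 nor limma-voom called a member.

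Glia-gated droplets were then set beside neuron-gated ones of the same mice. With the mouse as a block in edgeR, 4 of the 8 members tested were higher in glia-gated droplets and 1 was lower. Of all 12479 genes 35.1% were called, 14.4% higher and 20.8% lower. Ugt8a had the largest difference, a log2 fold change of 3.65 ± 0.71 (SE, edgeR adjusted p = 1.55e-06), on 11 glial UMIs found in all 6 mice. Mal was higher by 1.07 ± 0.22 (edgeR adjusted p = 1.05e-05) and Mbp by 1.04 ± 0.15 (edgeR adjusted p = 2.09e-10). Mal had 49.7 and 33.9 CPM in glia of deficient, 86.8 and 40.6 CPM of supplemented and 33.6 and 38.9 CPM of wild-type mice, above its neuron level in each of the 6 mice. Pmp22 was lower in glia, by -0.67 ± 0.08 on the log2 scale (edgeR adjusted p = 1.36e-15), and this held in 6 of 6 mice. The neuron level pools classes that differ, described below. The mean Pmp22 level in glia, 418.5 CPM, lay below its means in TH (1250 CPM), NP2 (627) and NP1 (601). It lay above those in NF (341 CPM), PEP (286) and NP3 (209). For Mbp the glia mean, 104.5 CPM, lay below that of TH alone (134 CPM). For Mal the glia mean, 47.2 CPM, lay below that of NP1 alone (49.3 CPM).

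The remaining members gave little in glia. Egr2 was higher there by 2.18 ± 0.73 (edgeR adjusted p = 0.00977) on 8 UMIs, 4 of them from mouse 670, without which the edgeR adjusted p was 0.218. Without mouse 670 its value was 1.58. Prx, Ncmap and Pllp had 2, 2 and 3 glial UMIs and did not pass the test (edgeR adjusted p of 0.802, 0.461 and 0.465). limma-voom called Prx higher in glia. Mag had 0 UMIs in the 729 glia-gated droplets, which allows a share of droplets with a Mag UMI of up to 0.505% (exact interval), and 0.121% of neuron-gated droplets had one. As a ratio over all mice, the neuron level was 1.37 of the glia level for Pmp22 (95% interval 1.26 to 1.48), 0.426 for Mbp (0.359 to 0.508), 0.411 for Mal (0.321 to 0.532) and 0.0770 for Ugt8a (0.0390 to 0.164), the intervals covering counting error only. By mouse the ratio ran from 1.14 to 1.65 for Pmp22 and 0.251 to 0.561 for Mbp. For Mal it ran from 0.283 to 0.603 and for Ugt8a from 0.0308 to 0.119. The medians over mice were 1.36 for Pmp22, 0.444 for Mbp, 0.446 for Mal and 0.0389 for Ugt8a. With a stricter gate those of Pmp22, Mbp and Mal were 1.56, 0.2975 and 0.295. With a wider neuron gate that of Ugt8a was 0.112. The satellite glia markers, led in UMIs by Apoe, Dbi and Fabp7, had a median log2 fold change of 5.33 over the 19 tested, which the gates fix, since these markers define them. Of 25 other myelin genes, 10 were higher and 2 lower among 19 tested, with a median of 0.69 beside 0.76 for the members and -0.08 for all genes. Among those, the tetraspanin Tspan2 had 0.15 ± 0.12 (edgeR adjusted p = 0.369) and Cd9, another tetraspanin, was lower at -0.43 ± 0.07.

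**Figure D2:**
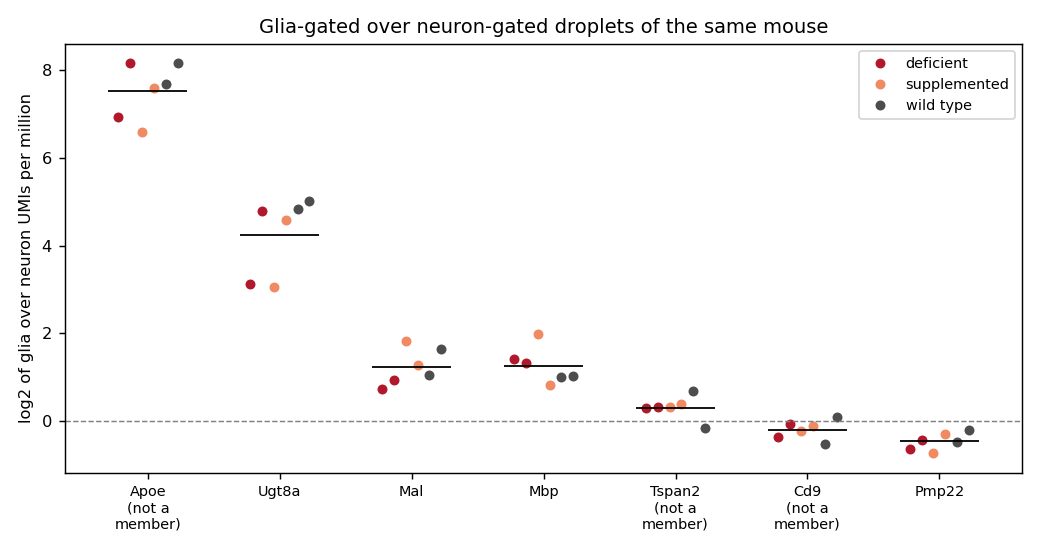
log2 of the level in glia-gated over that in neuron-gated droplets of the same mouse, 1 point per mouse coloured by group, with the mean as a line and a dashed line at equal levels, for 4 of the 9 myelin genes and 3 other genes with glial UMIs in every mouse. Ugt8a, Mal and Mbp lie above the dashed line and Pmp22 below it in all 6 mice; Apoe is one of the markers that define the gates.

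Within neurons, Mbp, Pmp22 and Pllp were highest in TH-gated neurons, the Th-expressing C-fibre low-threshold mechanoreceptors, whose axons carry no myelin. Classes were gated by marker genes that include no member, and each of 6 was set against the mean of the other 5 with the mouse as a block in edgeR, over 11102 genes of which 5 are members. In TH-gated neurons 4 of the 5 members were higher and none was lower, where 68% of all genes were called, 35.8% higher and 32.2% lower. Mbp had 139 and 143 CPM in TH-gated neurons of deficient, 122 and 136 CPM of supplemented and 114 and 150 CPM of wild-type mice. In the other classes its mean was 40.3 ± 15.1 (PEP), 21.0 ± 6.48 (NF), 14.9 ± 9.44 (NP3), 10.5 ± 5.74 (NP2) and 7.69 ± 6.05 CPM (NP1; SD, n = 6 mice), and the lowest TH value was above the highest of any other class, 66.7 CPM. The log2 fold change was 3.19 ± 0.10 (SE, edgeR adjusted p = 5.11e-41). A Mbp UMI was found in 39.7% of TH-gated droplets (exact 95% interval 38.0 to 41.5%) against 4.07% of NP3-gated ones (3.10 to 5.23%), at median depths of 4083 and 3653 UMIs, and in 12.3% against 1.43% after each droplet was thinned to 1000 UMIs.

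Pmp22 and Pllp had the same leading class. Pmp22 averaged 1250 ± 69.9 CPM in TH-gated neurons, against 627 ± 61.4 in NP2, 601 ± 36.1 in NP1, 341 ± 50.4 in NF, 286 ± 39.2 in PEP and 209 ± 31.4 CPM in NP3 (SD, n = 6 mice). TH lay above every other class in all mice, NP1 and NP2 overlapped each other above the rest, and PEP overlapped NF and NP3. The log2 fold change of Pmp22 was 1.76 ± 0.04 in TH-gated neurons (edgeR adjusted p = 2.32e-49), 0.60 ± 0.04 in NP1 and 0.63 ± 0.05 in NP2, and it was lower in NP3 by -1.35 ± 0.06, in PEP by -0.95 ± 0.05 and in NF by -0.69 ± 0.05. Pllp had 10.4 and 7.97 CPM in TH-gated neurons of deficient, 11.3 and 6.44 CPM of supplemented and 10.97 and 12.4 CPM of wild-type mice. Its means elsewhere were 0.704 to 2.84 CPM, and only the NP2 value of mouse 670, 6.85 CPM, reached into the TH range. The log2 fold change of Pllp was 2.87 ± 0.24 (edgeR adjusted p = 9.82e-18).

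Mal followed a different class order. It had 60.7 and 46.1 CPM in NP1-gated neurons, the Mrgprd-type non-peptidergic nociceptors, of deficient, 54.1 and 45.3 CPM of supplemented and 48.9 and 40.9 CPM of wild-type mice. It averaged 37.4 ± 7.64 CPM in NP2-gated neurons, the Mrgpra3-type itch neurons, and 15.5 ± 4.05 CPM in NP3-gated neurons, the Sst- and Nppb-expressing itch neurons. In TH-gated neurons it averaged 7.21 ± 4.21 CPM, in the peptidergic nociceptors (PEP) 2.64 ± 2.90 CPM and in the large neurons of the NF class 1.32 ± 1.66 CPM (SD, n = 6 mice). NP1 and NP2 overlapped, and both lay above the other 4 classes in every mouse. The log2 fold change of Mal was 3.14 ± 0.13 in NP1, 2.69 ± 0.19 in NP2 and 1.06 ± 0.25 in NP3, and -3.92 ± 0.33 in NF and -2.58 ± 0.32 in PEP (edgeR adjusted p of 0.000139 or less in each). NF neurons, whose axons Schwann cells myelinate, thus had the lowest mean Mal level, overlapping with PEP, and 0.565% of NF-gated droplets had a Mal UMI against 28.7% of NP1-gated ones, at median depths of 5604 and 6680 UMIs.

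**Figure D3:**
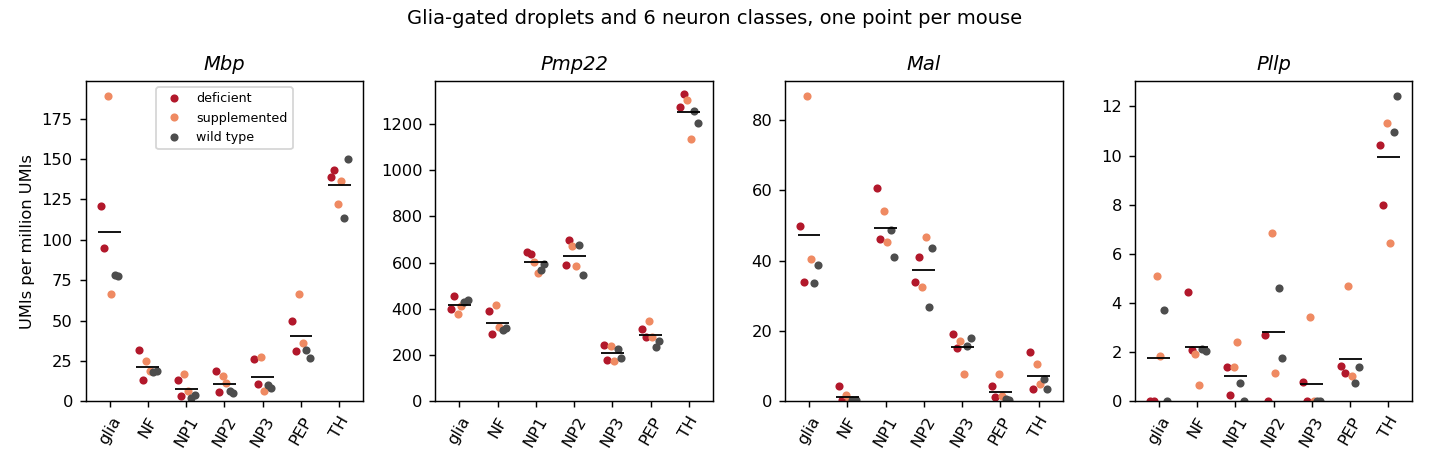
CPM of Mbp, Pmp22, Mal and Pllp in glia-gated droplets and in 6 neuron classes, 1 point per mouse coloured by group, with the mean as a line; each panel has its own scale starting at 0. Mbp, Pmp22 and Pllp are highest among neuron classes in TH, with means of 134, 1250 and 9.93, and Mal in NP1 and NP2.

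In the other classes the members called were set beside shares of all genes of 44.5% or more. In NF-gated neurons 3 of 5 members were lower (Pmp22, Mal and Ncmap) and none higher, where 78.7% of all genes were called, 41.2% higher and 37.5% lower. In NP1 2 were higher and 1 lower, where 68.4% of all genes were called (33.2% higher, 35.3% lower), and in NP2 2 were higher and 1 lower, where 44.5% were (25.8% higher, 18.8% lower). In NP3 2 were higher and 3 lower, where 53.4% of all genes were called (27.6% higher, 25.8% lower), and in PEP 1 was higher and 2 lower, where 66.6% were (37.2% higher, 29.3% lower). Mbp was lower in NP1 by -1.69 ± 0.19, in NP2 by -1.36 ± 0.26 and in NP3 by -0.70 ± 0.23, and higher in PEP by 0.84 ± 0.14 (edgeR adjusted p of 0.00882 or less in each). The NP3 call of Mbp was lost with a larger class margin (edgeR adjusted p = 0.0549), and that call and the NP3 call of Pllp (-2.06 ± 0.74) were lost with a wider neuron gate. Ncmap was called higher in TH (0.74 ± 0.31) and NP3 (1.15 ± 0.39) and lower in NF (-0.92 ± 0.39), and each of these calls was lost when 1 library was left out: without mouse 654 the TH value was 0.41, without mouse 657 the NP3 value was 0.89 and without mouse 670 the NF value was -0.52 (edgeR adjusted p of 0.335, 0.0663 and 0.282). The TH call was also lost without mouse 670 (0.67), with DESeq2 (0.63), with limma-voom (0.38) and with no mouse block (0.74), and the NF call without mouse 671 (-0.85) and with no mouse block (-1.13). Prx, Mag, Ugt8a and Egr2 had too few UMIs to be tested by class. Of the 25 other myelin genes, 14 were tested in TH, where 6 were higher, among them Tspan2 (1.43 ± 0.06), and 3 lower, among them Cd9 (-0.90 ± 0.06), with a median of 0.15 beside 1.76 for the members and 0.01 for all genes.

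Outside TH, the Mbp level followed the libraries. In NP1-gated neurons it was 13.3 and 3.30 CPM in deficient, 17.0 and 6.52 CPM in supplemented and 2.19 and 3.88 CPM in wild-type mice, and mice 654 and 670 had the 2 highest values in all 5 classes other than TH. In TH-gated neurons they did not: their values of 139 and 122 CPM lay within the range of the other mice, 114 to 150 CPM. Over the 18 comparisons of groups within classes, 2 to 5 members were tested in each and 0 of 57 member tests were called by edgeR, with 5 of the 57 at an unadjusted p of 0.05. All 5 were of Mbp in NP1 or PEP or of Ncmap in TH. Of the 7517 to 10394 genes tested in a comparison, 191 to 580 were at that p. The share of all genes called was 0.0192% in deficient and 0.00962% in supplemented against wild-type mice for NF, 0.0208% and 0.146% for NP1, 0.0387% and 0.0129% for NP2, 0.0266% and 0.0133% for NP3, and 0.0296% in both for PEP. It was 0% for TH and for deficient against supplemented mice in all 6 classes. DESeq2 and limma-voom called none of them either. The smallest adjusted p, 0.513, was that of Mbp in supplemented against wild-type NP1-gated neurons (1.95 ± 0.60).

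The genes most like the members over the 42 sums of 6 mice by 7 cell types (glia and 6 neuron classes) were Mboat2 (Pearson r = 0.72), Rap2a (0.70), Hdac4 (0.70), Arhgap31 (0.70) and Axin2 (0.70), among 11883 genes with at least 100 UMIs in these sums. The r is between log2(CPM + 10) of the gene and the mean of the standardised members, and sums of 1 mouse share a library, so it is given as a description.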

How the data were processed

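RNA of single DRG cells was measured with 10x Chromium 3′ v2 libraries, 1 per mouse, per the labels' protocols. The authors deposited a table of raw UMI counts per gene and droplet, and the submitters' processing notes name Cell Ranger 2.0.1, bcl2fastq 2.17.1.14, Seurat 2.3.0, limma 3.32.10 and the build mm10, with no role. How the droplets in the table were chosen is not stated, and 0 of its columns belong to other samples.

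Droplets needed 500 genes or more, with no more than 20% of UMIs mitochondrial. The glial fraction is the share of satellite glia UMIs in the sum of satellite glia and pan-neuronal UMIs: under 0.05 was gated neuron, 0.3 or more glia and the rest intermediate, with 1138 droplets within 0.01 of the first threshold and 580 within 0.05 of the second. Droplets with 0.5% or more of UMIs from 12 Schwann genes, or from markers of other cells, were gated apart. Neuron classes were set by the highest mean marker score, with a margin of 0.2 over the next. No doublet caller was run; leaving out the droplets of most UMIs was an alternative.

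Counts were summed per mouse and gate and tested with edgeR 4.0.16 (TMM scaling, filterByExpr, quasi-likelihood test, Benjamini-Hochberg adjustment over all genes tested, threshold 0.05) in R 4.3.3, after a check on simulated counts. The replicate is the mouse, 2 per group, and the 3 groups share 1 estimate of the spread. Contrasts of classes other than NF were added after the data were seen. The alternatives were DESeq2 1.42.0, limma-voom (limma 3.58.1), other size factors, no count filter, other cell filters and gates, thinned sums, sex as a term, no mouse block and leaving out each mouse. Upstream sequences are RefSeq's. Neuron sums held at least 9848887 UMIs per mouse, and intervals on UMIs or droplets cover counting error only.

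All members were named, with the 3 other myelin genes and the 3 satellite glia markers of most glial UMIs, any other myelin gene called between groups, and the 5 genes most like the members. Results of some genes that this rule names are not reported here. The members and lists were chosen with earlier results of these data known.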

Additional observations from a re-analysis of the deposited data

Results flagged for a closer look

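Pmp22 and Pllp gave opposite signs between cell types in supplemented against wild-type mice, and in each case the difference was not tested. On the log2(CPM + 10) scale Pmp22 was 0.23 higher in NF-gated neurons of supplemented mice (415 and 323 CPM) than of wild-type mice (307 and 317 CPM), and every supplemented value lay above the wild-type ones. In glia the difference was -0.13 (378 and 414 CPM in supplemented, 429 and 439 CPM in wild-type mice), with every supplemented value below the wild-type ones. The 2 differences were 0.357 apart. In PEP-gated neurons the Pmp22 difference was 0.32 (348 and 280 CPM in supplemented, 236 and 263 CPM in wild-type mice), which is 0.448 apart from that in glia. Pllp differed by 0.20 in NP1-gated neurons (1.39 and 2.40 CPM in supplemented, 0.729 and 0 CPM in wild-type mice) and by -0.10 in NF-gated neurons (1.92 and 0.666 CPM in supplemented, 2.13 and 2.05 CPM in wild-type mice), and these are 0.299 apart. Pmp22 was not called between groups in NF, PEP or glia. Pllp was below the count filter in NP1 and NF, where these values rest on 4 and 7 UMIs in supplemented and 2 and 0 UMIs in wild-type mice for NP1, and on 3 and 2 UMIs in supplemented and 5 and 10 UMIs in wild-type mice for NF.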

How the results depend on the processing

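Over 20 alternative settings, 20 of 26 called member results stayed called wherever they were tested and 0 changed sign. Of 36 uncalled ones 19 changed sign somewhere. Uncalled results became called in 14 alternative values. Among these, Pllp was called lower in NP1 in 4 of 17 alternatives and Mbp lower in NF in 3 of 17. With a wider neuron gate Mal was also called lower in TH and Ncmap lower in NP2. Values are log2 fold changes, and the cause of each change was not tested. The mice share no replicate number between groups, so none were paired by number. With sex as a term, which sets the female and the male of each group side by side, 0 members were called between groups in neurons and in glia. An arm left with 1 mouse is assumed to vary like the others.

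In neurons, the genes called numbered 0 in each comparison. Without the count filter they were 64 in deficient and 89 in supplemented against wild-type mice and 10 in deficient against supplemented mice, with 2 members in each of the first pair. DESeq2 gave 1 and 5 genes against wild-type mice. Without mice 654 and 670, the libraries of fewest UMIs per droplet (left out after seeing the data), the counts were 3, 21 and 9 genes. Leaving out 1 mouse gave 0 to 1, 0 to 4 and 0 to 1 genes. With a wider neuron gate 3 members were called in NP3, in place of 5.

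Without mice 654 and 670, deficient against wild-type neurons gave -0.00145 for Mbp, -1.84 for Prx, -0.051 for Ncmap and -0.34 for Egr2, supplemented against wild-type ones gave -0.043 for Mbp and -0.11 for Pmp22, deficient against supplemented ones gave 0.042 for Mbp and 0.015 for Pllp, and NF gave 0.69 for Pllp. With the highest-UMI droplets left out, Egr2 was -0.056 in deficient and Pmp22 -0.016 in supplemented against wild-type mice. With a wider gate, Egr2 was -0.0079 in deficient and Pllp 0.10 in supplemented against wild-type mice. With a stricter gate, Pllp was 0.058 in supplemented against wild-type mice and 0.028 in PEP. Without the count filter, Mbp was 0.0037 in deficient against supplemented mice and Pllp 0.047 in NF. A stricter cell filter gave 0.016 for Mbp in deficient against supplemented mice. limma-voom gave 0.31 for Ncmap and 0.059 for Pllp in glia against neurons. For Pllp in NF, other size factors gave 0.044 and DESeq2 0.10. A larger class margin gave 0.0070 for Ncmap in NP1.

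Leaving out 1 mouse at a time, deficient against wild-type values ran from -0.0084 to 0.23 for Mbp, -1.84 to 2.23 for Prx, -0.058 to 2.12 for Ncmap, -0.34 to 0.48 for Egr2 and -0.41 to 0.039 for Pllp. Supplemented against wild-type values ran from -0.052 to 0.27 for Mbp, -0.12 to 0.17 for Pmp22, -0.47 to 2.42 for Ugt8a and -0.43 to 0.33 for Pllp. Deficient against supplemented values ran from -0.16 to 0.16 for Mbp, -0.19 to 0.55 for Mal, -1.68 to 0.82 for Ncmap, -0.32 to 2.65 for Ugt8a and -0.52 to 0.24 for Pllp. The Pllp value in NF ran from -0.20 to 0.43. The count of UMIs limits Prx, Mag, Ugt8a and Egr2 most, with 20 to 80 UMIs each over all neurons. Each Prx value of -1.84 rests on 1 UMI in the deficient arm, that of mouse 657.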
